A study of Macaca mulatta with 11 samples.

Results

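The genes described here are 10 imprinted regulators of growth, MEG3, H19, CDKN1C and GRB10, grouped as maternally expressed, and PLAGL1, PEG3, PEG10, MEST, NDN and DLK1, grouped as paternally expressed. They were found by their symbols in the annotation of the array. Of the 10 genes 9 were measured, by 22 of 22215 probe sets, out of 13119 gene symbols in all. No probe set was matched to H19, which is not analysed here. 1 of the 22 probe sets carries the symbols ZIM2 and PEG3 together.

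Each of 11 arrays read 1 culture of mesenchymal stem cells of bone marrow, adherent stromal cells that can form bone, fat and cartilage, from untreated rhesus monkeys (Macaca mulatta) of several ages. By title 4 cultures were fetal, 4 infant and 3 adult. The donors of fetal arrays 1 and 2 were at gestation day 120, but those of fetal arrays 3 and 4 were newborn, so both stages are given apart wherever single arrays are listed. Infant donors were 6, 6, 3 and 5 months old (arrays 1 to 4) and adult donors 7, 7 and 8 years old (arrays 1 to 3). All cells were collected before confluence at the second passage. Marrow was flushed from long bones for the fetal-titled arrays and aspirated for the others. Age and the way marrow was taken therefore cannot be told apart where fetal-titled arrays are set against infant or adult arrays. Infant and adult arrays do not differ in this. The labels do not state whether cultures within a group are from separate animals. P-values therefore measure the spread between these cultures.

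An imprinted gene is read mainly from the copy inherited from one parent. The copies differ in DNA methylation set down in the germ line, and the other copy is silenced by methylation or by a noncoding RNA. Imprinted genes sit in clusters under shared control regions, are active in the fetus and placenta, and many are turned down as growth slows after birth. As a rule of thumb paternally expressed genes promote growth and maternally expressed ones restrain it, although the allele used can depend on the tissue and the isoform, as for GRB10. The arrays read total RNA of a gene and do not show which allele was read, so "maternally" and "paternally expressed" are textbook classes here. RNA of a whole culture does not tell fewer expressing cells from less RNA per cell.

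Levels are given as log2 of the deposited intensity, on which 1 unit is a doubling. The probes are annotated with human genes, so the level of a probe set also depends on how well its probes fit the monkey transcript, and levels are compared between arrays and not between genes. The median of all log2 values was 7.38, and 15 of the 22 probe sets had a mean at or above the median of all probe set means. Each gene is represented by its brightest single-symbol probe set. The test was limma, a linear model with moderated variances, and a difference was called where its p, adjusted by Benjamini-Hochberg across the whole array, was under 0.05.

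No probe set of these genes was called between any age groups in the fits of all 11 arrays with equal weights and no block. The most marked differences went toward higher values in fetal-titled than in adult arrays, for probe sets of MEST, PLAGL1, MEG3 and PEG10. Probe sets 212732_at of MEG3 (-0.02) and 207943_x_at of PLAGL1 (-0.12) did not share that direction. CDKN1C, GRB10, PEG3, NDN and DLK1 had differences between fetal and adult arrays of at most 0.24 in either direction in every probe set.

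Between fetal and adult arrays 0 of the 22 probe sets passed in limma, where 0.131% of all probe sets passed. An unadjusted p under 0.05 was reached by 4 of the 22, against 8.96% of all. For 3 of the 22 the fetal and adult arrays were apart, all 3 higher in fetal arrays. Of all probe sets 8.08% were apart, 3.66% higher and 4.41% lower. With 1 probe set per gene, 7 of 9 genes were higher and 2 lower, with a median difference of 0.13. Over all probe sets 47.5% were higher and the median was -0.01.

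**Figure D1:**
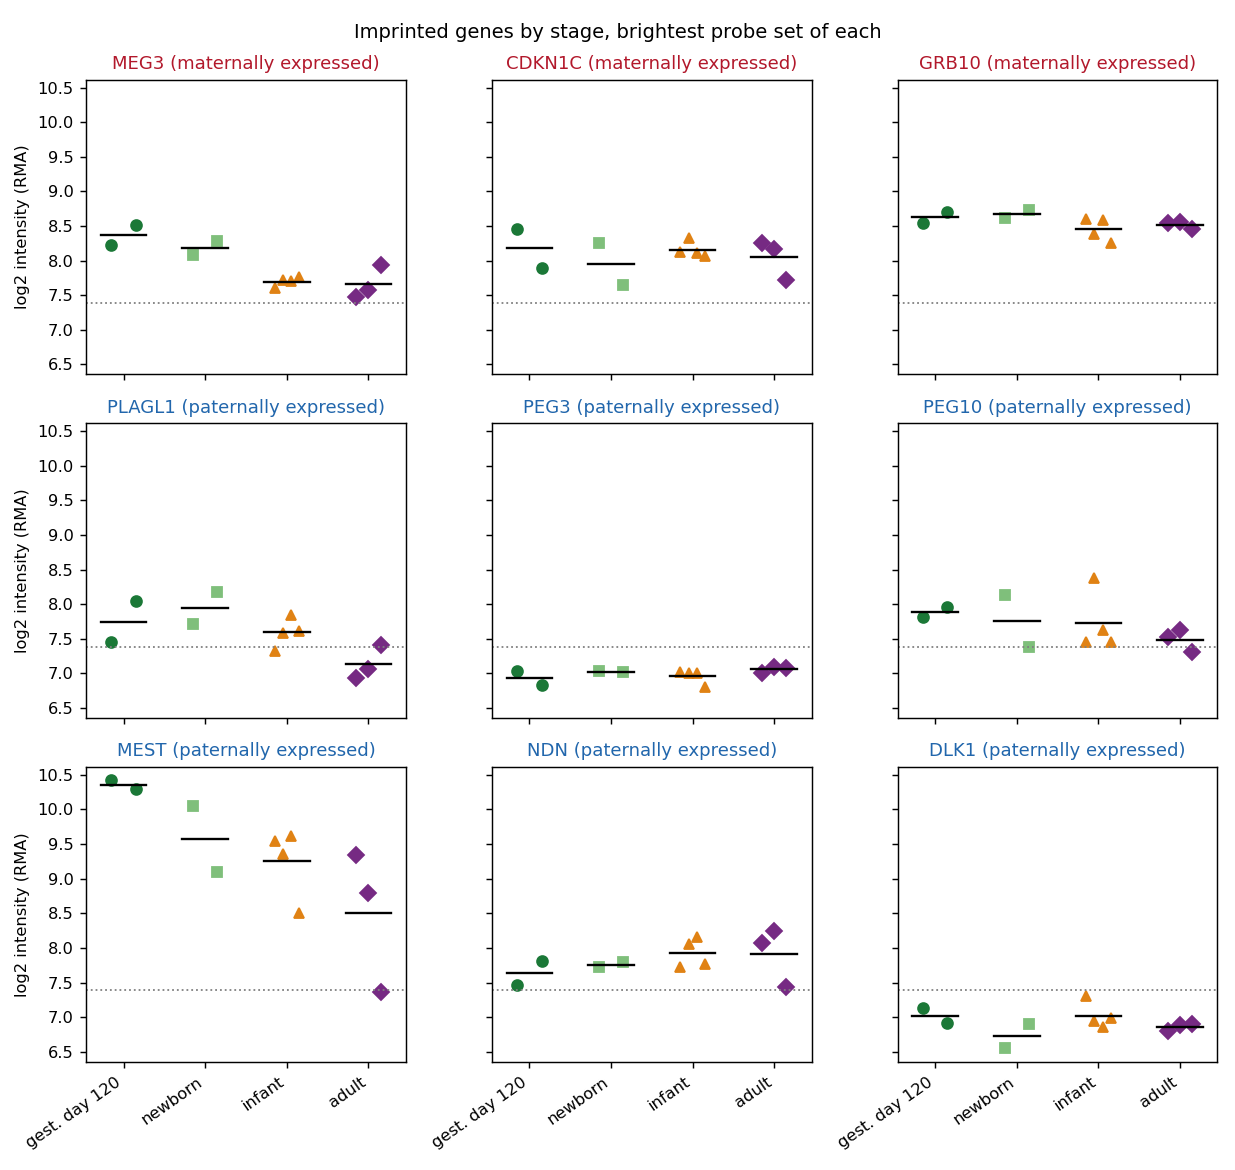
Log2 intensity (vertical axis) of the brightest single-symbol probe set of each of the 9 genes by stage of the donor (horizontal axis). Each point is 1 array, bars are stage means, and the dotted line is the median of all values, 7.38. MEST spans 7.37 to 10.42, the 4 fetal-titled MEG3 values (8.08 to 8.52) lie above all others, and PEG3 and DLK1 lie below the dotted line in every array.

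MEST, a paternally expressed gene for a protein of the alpha/beta hydrolase fold that is abundant in fetal mesoderm, was the brightest of the set and varied most. It read 10.42 and 10.30 in the gestation day 120 arrays, 10.05 and 9.09 in the newborn arrays, 9.55, 9.36, 9.61 and 8.50 in the infant arrays, and 9.34, 8.80 and 7.37 in the adult arrays. The stage means went down in order of age, yet only gestation day 120 stood clear of the next stage, and newborn overlapped infant and infant overlapped adult arrays. The mean was 9.96 ± 0.60 (SD, n = 4) for fetal, 9.26 ± 0.51 (SD, n = 4) for infant and 8.50 ± 1.01 (SD, n = 3) for adult arrays. The fetal-to-adult difference was 1.46 (SE 0.41), a 2.75-fold higher level with a 95% interval from 1.49-fold to 5.09-fold, and it did not pass (limma adjusted p = 0.246).

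Adult array 3, the lowest for MEST, weighs on this value. Without it the difference was 0.90 (limma adjusted p = 0.314), and without adult arrays 1 and 2 together it was 2.59. The latter leaves adult array 3 as the only adult array, here and wherever this setting is named, so it is given as a value with no p. That array also stood apart for XIST, a noncoding RNA that silences an X chromosome, at 11.23 against 7.27 to 8.40 in the other arrays, and for the Y-linked RPS4Y1, at 7.81 against 11.30 to 12.16. High XIST with low RPS4Y1 is the pattern of a female culture, and no other array had it. Each fit without adult array 3, or with it as the only adult array, therefore also changes the mix of sexes. The part of adult array 3 in the MEST difference was not tested beyond leaving it out. The infant-to-adult difference of MEST was 0.75 (SE 0.41, limma adjusted p = 0.819), and 0.19 without adult array 3 and 1.17 without adult array 1. Between fetal and infant arrays it was 0.71 (SE 0.38, limma adjusted p = 0.762), and 0.46 without infant array 4, the lowest infant value. It was 1.10 with gestation day 120 arrays alone and 0.32 with newborn arrays alone against infant arrays.

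PLAGL1, a paternally expressed zinc finger transcription factor that can halt the cell cycle and acts on other imprinted genes, had 3 probe sets. The brightest read 7.45 and 8.05 at gestation day 120, 7.71 and 8.17 in newborn, 7.32, 7.59, 7.85 and 7.62 in infant, and 6.94, 7.06 and 7.41 in adult arrays. Every fetal-titled array lay above every adult array, by as little as 7.45 against 7.41, and infant arrays overlapped both. The fetal-to-adult difference was 0.71 (SE 0.18), 1.64-fold with a 95% interval from 1.26-fold to 2.13-fold, and it did not pass (limma adjusted p = 0.165). Without adult arrays 1 and 2 together it was 0.44.

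The other PLAGL1 probe sets gave 0.22 (limma adjusted p = 0.560) and -0.12 (limma adjusted p = 0.853) between fetal and adult arrays. Of these, 207943_x_at read 7.55 ± 0.08 (SD, n = 4) for fetal, 7.35 ± 0.26 (SD, n = 4) for infant and 7.67 ± 0.12 (SD, n = 3) for adult arrays. Between infant and adult arrays the brightest probe set differed by 0.46 (SE 0.18) and 207943_x_at by -0.32 (SE 0.13), so that these probe sets of 1 gene went opposite ways (limma adjusted p = 0.725 and 0.767).

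PEG10, a paternally expressed gene derived from a retrotransposon and needed for the placenta, had 2 probe sets. The brighter, 212092_at, read 7.81 and 7.96 at gestation day 120, 8.14 and 7.38 in newborn, 7.45, 8.38, 7.63 and 7.45 in infant, and 7.53, 7.63 and 7.31 in adult arrays. Single arrays of newborn and infant donors reached high values, and all stages but gestation day 120 overlapped adult arrays. Its fetal-to-adult difference was 0.33 (SE 0.22, limma adjusted p = 0.711), and 0.51 without adult arrays 1 and 2 together.

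The other PEG10 probe set, 212094_at, read 7.87 and 7.61 at gestation day 120, 7.90 and 7.60 in newborn, 7.74, 7.45, 7.66 and 7.60 in infant, and 7.18, 7.31 and 7.45 in adult arrays. Fetal-titled arrays all lay above adult arrays, and infant arrays were apart from adult arrays only by the third decimal, with 7.45 on both sides. The difference was 0.43 (SE 0.12, limma adjusted p = 0.212) between fetal and adult and 0.30 (SE 0.12, limma adjusted p = 0.732) between infant and adult arrays.

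NDN, a paternally expressed gene for necdin, a protein of the MAGE family that restrains cell division, did not share that direction. It read 7.47 and 7.81 at gestation day 120, 7.73 and 7.79 in newborn, 7.72, 8.06, 8.16 and 7.77 in infant, and 8.07, 8.25 and 7.43 in adult arrays. The lowest value of all was that of adult array 3, and the stages overlapped. The fetal-to-adult difference was -0.22 (SE 0.18, 95% interval -0.60 to 0.16, limma adjusted p = 0.776). It was -0.46 without adult array 3 (limma adjusted p = 0.210), -0.05 without adult array 2 and 0.26 without adult arrays 1 and 2 together.

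DLK1, a paternally expressed ligand of the NOTCH family that holds back fat cell formation, and PEG3, a paternally expressed zinc finger gene, read dimly. DLK1 read 7.13 and 6.91 at gestation day 120, 6.55 and 6.90 in newborn, 7.30, 6.94, 6.85 and 6.99 in infant, and 6.80, 6.88 and 6.90 in adult arrays. Its mean stood at percentile 14.0 of all probe sets, and its fetal-to-adult difference was 0.01 (SE 0.14, 95% interval -0.28 to 0.31, limma adjusted p = 0.994).

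PEG3 read 7.03 and 6.83 at gestation day 120, 7.03 and 7.02 in newborn, 7.02, 7.00, 7.01 and 6.81 in infant, and 7.01, 7.09 and 7.08 in adult arrays, with a fetal-to-adult difference of -0.08 (SE 0.10, limma adjusted p = 0.867). Its other single-symbol probe set stood at percentile 1.90 and differed by 0.01 (limma adjusted p = 0.988). The probe set shared with ZIM2 was brighter, between 7.75 and 8.01 in infant and between 8.02 and 8.30 in adult arrays, and these did not overlap. Its infant-to-adult difference was -0.25 (SE 0.10, limma adjusted p = 0.767).

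MEG3, a maternally expressed long noncoding RNA with growth-suppressing activity, gave the smallest p of the set. Its brighter probe set, 210794_s_at, read 8.23 and 8.52 at gestation day 120, 8.08 and 8.28 in newborn, 7.61, 7.72, 7.70 and 7.76 in infant, and 7.48, 7.58 and 7.94 in adult arrays. All 4 fetal-titled arrays lay above all infant and adult arrays, while infant and adult arrays overlapped. The mean was 8.28 ± 0.19 (SD, n = 4) for fetal, 7.70 ± 0.06 (SD, n = 4) for infant and 7.67 ± 0.25 (SD, n = 3) for adult arrays.

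The fetal-to-adult difference of MEG3 was 0.61 (SE 0.13), 1.53-fold with a 95% interval from 1.26-fold to 1.85-fold, and it did not pass over all probe sets (limma adjusted p = 0.0831). Leaving out adult array 3 gave 0.75 and brought it past the threshold (limma adjusted p = 0.0136), whereas leaving out adult arrays 1 and 2 together gave 0.33. With array weights, which count deviating arrays less, it was 0.69 and passed (limma adjusted p = 0.0333). Adult array 3 had the lowest weight (0.567), so this is not separate from leaving that array out. Of all probe sets 0.689% passed without adult array 3 and 0.54% with array weights, against 0.131% with neither. Leaving out each array in turn gave MEG3 differences from 0.52 to 0.75, with limma adjusted p from 0.0136 to 0.338. Against infant arrays the fetal difference was 0.58 (SE 0.12, limma adjusted p = 0.280), and infant and adult arrays differed by 0.03 (SE 0.13, 95% interval -0.24 to 0.31, limma adjusted p = 0.985). The other MEG3 probe set, 212732_at, stood at percentile 6.81 and lay between 6.48 and 7.15 in all 11 arrays. Its fetal-to-adult difference was -0.02 (SE 0.15, limma adjusted p = 0.984).

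CDKN1C, which encodes the cyclin-dependent kinase inhibitor p57 and is maternally expressed, had 5 probe sets. The brightest read 8.46 and 7.90 at gestation day 120, 8.25 and 7.65 in newborn, 8.12, 8.32, 8.11 and 8.06 in infant, and 8.26, 8.17 and 7.72 in adult arrays. Fetal array 4 and adult array 3 were the lowest, and the stages overlapped. The fetal-to-adult difference was 0.02 (SE 0.18, 95% interval -0.37 to 0.40, limma adjusted p = 0.992). The other probe sets gave between -0.14 and 0.24, with 1 higher and 3 lower in fetal arrays. All 5 were higher in infant than in adult arrays, by 0.10 to 0.45, and none passed (limma adjusted p of at least 0.717).

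GRB10, an adaptor that binds the insulin and IGF1 receptors and damps their signal, had 4 probe sets and small differences. The brightest, 209410_s_at, read 8.55 and 8.70 at gestation day 120, 8.61 and 8.73 in newborn, 8.60, 8.39, 8.59 and 8.26 in infant, and 8.54, 8.56 and 8.45 in adult arrays. Fetal-titled arrays overlapped infant and adult arrays through gestation day 120, while both newborn arrays lay just above every infant and adult array. The fetal-to-adult difference was 0.13 (SE 0.11, 95% interval -0.10 to 0.36, limma adjusted p = 0.776).

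Another GRB10 probe set, 209409_at, read 8.17 and 8.21 at gestation day 120, 8.26 and 8.80 in newborn, 7.77, 8.13, 8.15 and 8.12 in infant, and 8.21, 8.36 and 8.21 in adult arrays. Infant arrays were the lowest and overlapped neither fetal nor adult arrays. The difference was 0.32 (SE 0.14, limma adjusted p = 0.700) between fetal and infant and -0.22 (SE 0.15, limma adjusted p = 0.861) between infant and adult arrays. Without fetal array 4 the fetal-to-infant value was 0.17.

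**Figure D2:**
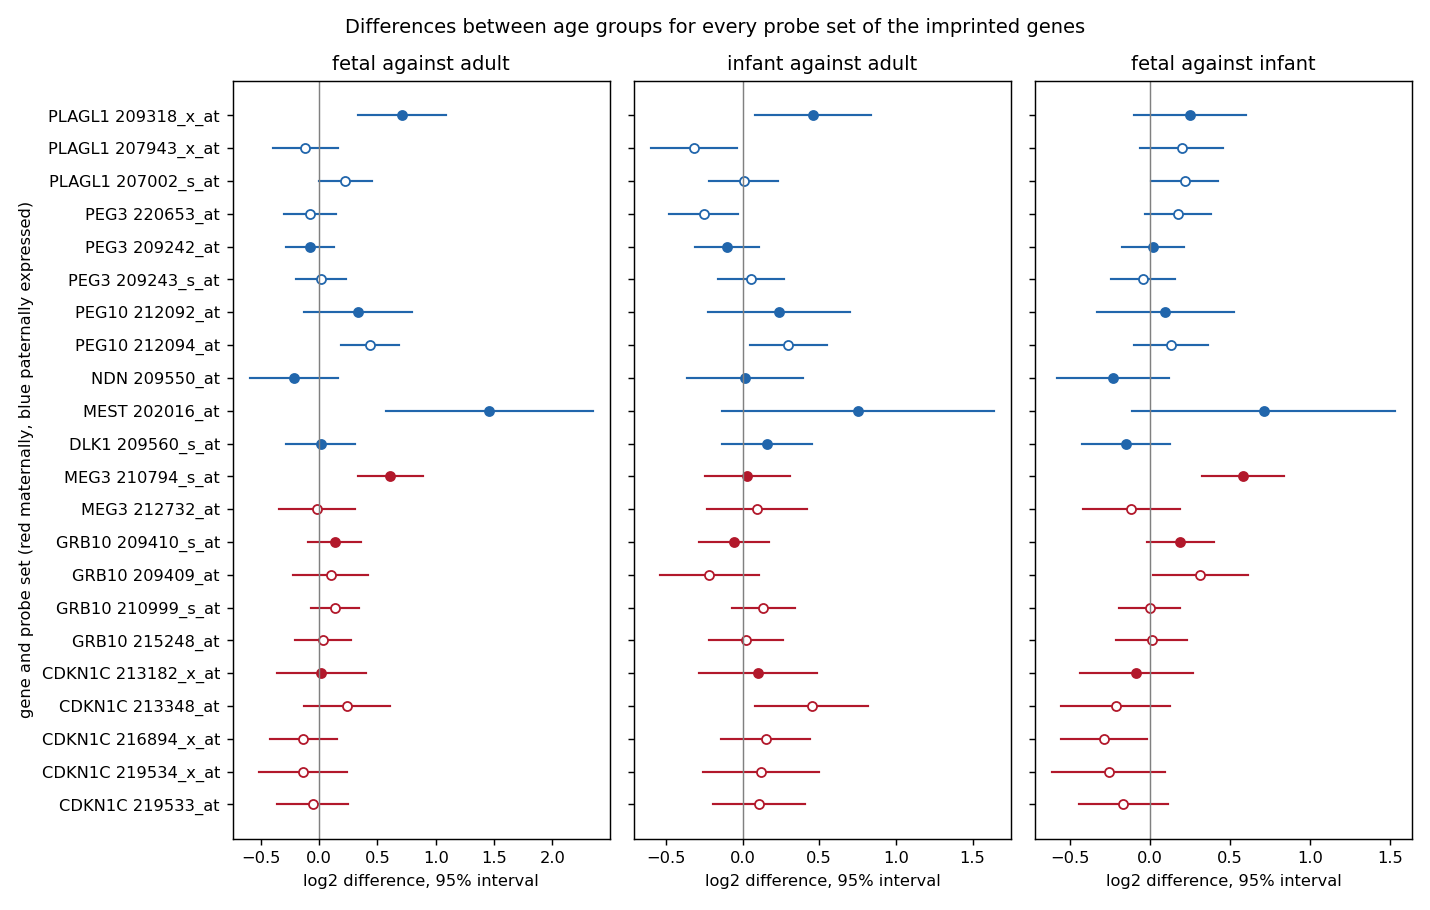
Log2 differences (horizontal axis) between age groups for all 22 probe sets (vertical axis), red for maternally and blue for paternally expressed genes, with 95% intervals from limma and filled points for the probe set that represents the gene. Intervals of MEST (1.46), PLAGL1 (0.71), MEG3 (0.61) and 1 PEG10 probe set (0.43) lie above 0 between fetal and adult arrays, and no probe set passed after adjustment over all probe sets.

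Between infant and adult arrays 0 of the 22 probe sets passed in limma, where 0.018% of all passed, and 5 reached an unadjusted p under 0.05, against 6.19% of all. The arrays were apart for 3 of the 22, 1 higher and 2 lower in infant arrays, against 4.98% of all (1.8% higher, 3.18% lower). Values were higher in infant arrays for 17 of the 22 and for 46.1% of all. With the replicate number of the titles as a block 9 probe sets passed in place of 4 in the whole series, and again 0 of the 22. This comparison shares the adult arrays with the fetal one.

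Between fetal and infant arrays 0 of the 22 passed in limma, as for 0.0% of all probe sets, and 4 reached an unadjusted p under 0.05, against 6.87% of all. The arrays were apart for MEG3 210794_s_at and GRB10 209409_at, both higher in fetal arrays, against 3.34% of all (2.13% higher, 1.21% lower). Values were higher in fetal arrays for 12 of the 22 and for 51.6% of all. Between newborn and gestation day 120 arrays, with 2 arrays each, 0 of the 22 passed and 0 reached an unadjusted p under 0.05, where 0.0% and 1.81% of all did in limma. These arrays were apart for 5 of the 22, 2 higher and 3 lower in newborn arrays, against 28.8% of all (13.7% higher, 15.2% lower). Values were higher in newborn arrays for 12 of the 22 and for 48.5% of all. MEST had the largest difference in size there, -0.79 (SE 0.52, 95% interval -1.91 to 0.33), and it rested on fetal array 4, without which it was -0.31. In a test for any difference among the 4 stages 0 of the 22 passed, where 0.027% of all did, and 4 reached an unadjusted p under 0.05, against 5.53% of all. MEG3 came closest (limma adjusted p = 0.246).

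The maternally and paternally expressed genes did not divide by direction. Between fetal and adult arrays the median difference was 0.13 over 3 maternally expressed genes, all of which were higher, and 0.17 over 6 paternally expressed genes, of which 4 were higher. Between infant and adult arrays the medians were 0.03 and 0.20, with 2 of 3 and 5 of 6 higher. Between fetal and infant arrays they were 0.19 and 0.06, with 2 of 3 and 4 of 6 higher. In each class the medians hid a spread among members, from 0.02 for CDKN1C to 0.61 for MEG3 in one and from -0.22 for NDN to 1.46 for MEST in the other. Taken over all probe sets of each class, the fetal-to-adult medians were 0.03 and 0.01, the infant-to-adult medians 0.10 and 0.06, and the fetal-to-infant medians -0.08 and 0.13, so that the maternal fetal-to-infant median turned its sign.

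**Figure D3:**
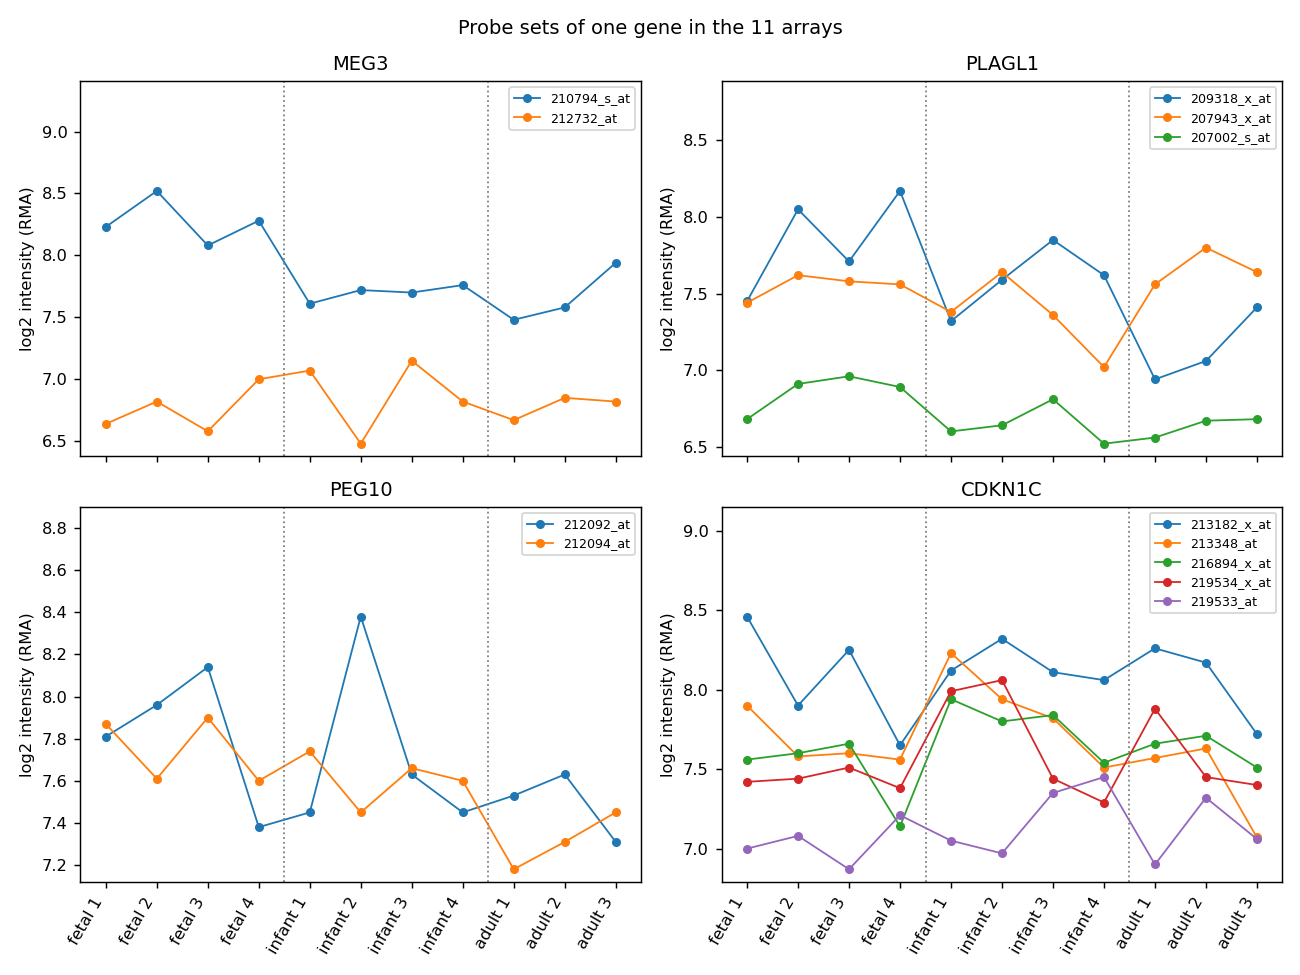
Log2 intensity (vertical axis) of every probe set of MEG3, PLAGL1, PEG10 and CDKN1C in the 11 arrays (horizontal axis), with dotted lines between the title groups. The lines of 1 gene often part: 1 MEG3 probe set is high in the 4 fetal arrays and the other is not. For PLAGL1, 209318_x_at is lower in adult than in fetal arrays, while 207943_x_at overlaps between them.

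Probe sets of the same gene often did not follow one another. Of 24 pairs of probe sets within a gene, 13 had the same sign between fetal and adult arrays. Several of these differences were smaller than their SE, such as CDKN1C 219533_at (-0.06, SE 0.14) and PEG3 209243_s_at (0.01, SE 0.10). Some probe sets were also dim, so the count of signs cannot show that probe sets disagree. The correlation within a pair over the 11 arrays, a description across arrays that share age groups, had a median of 0.215. It lay between -0.550 and 0.715, and was below 0 for 10 pairs. All 6 pairs of GRB10 agreed in sign, against 4 of 10 pairs of CDKN1C. MEST, NDN and DLK1 had 1 probe set each, so that no such comparison could be made for them.

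Other imprinted genes, in a list that excludes the 10, showed no called change either. Each listed gene is read here by its brightest single-symbol probe set, or its brightest where it had none. The other probe sets of these genes are not described. The paternally expressed list had 15 measured genes of 19 listed, with 25 probe sets. The 13 kept count a probe set shared between genes once and leave out that shared with PEG3. Of these 13, 9 were higher and 4 lower in fetal than in adult arrays (median 0.04). In limma 0 were called and 3 had an unadjusted p under 0.05. The maternally expressed list had 11 measured genes of 17, with 22 probe sets. Of the 11 genes 5 were higher and 6 lower (median -0.06), with 0 called and 2 at an unadjusted p under 0.05. Of all probe sets 47.5% were higher, 0.131% were called in limma and 8.96% had an unadjusted p under 0.05.

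The probe set that carries the symbols INS-IGF2 and IGF2, the latter the insulin-like growth factor of the fetus, gave the smallest p of both lists. It read 10.89 and 11.60 at gestation day 120, 11.47 and 11.88 in newborn, 10.62, 10.81, 11.90 and 10.47 in infant, and 10.42, 9.74 and 10.55 in adult arrays. Fetal-titled arrays all lay above adult arrays, and infant array 3 was as high as the highest newborn array. The difference was 1.22 (SE 0.31, limma adjusted p = 0.179).

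DIRAS3, a paternally expressed small GTPase with growth-suppressing activity, read 7.62 and 7.85 in adult arrays 1 and 2 but 6.80 in adult array 3 and between 6.81 and 6.92 in all other arrays. Its fetal-to-adult difference was -0.56 (SE 0.18, limma adjusted p = 0.332). It was -0.87 without adult array 3, which brought it past the threshold (limma adjusted p = 0.00111), and 0.07 without adult arrays 1 and 2 together. The probe set of SNURF and SNRPN, which share a transcript, differed by 0.31 (SE 0.14, limma adjusted p = 0.540). Among maternally expressed genes TFPI2, a protease inhibitor, differed by 0.77 (SE 0.36, limma adjusted p = 0.551). Without adult array 3 it was 1.36 (limma adjusted p = 0.0162), without adult array 2 it was 0.30, and without adult arrays 1 and 2 together it was -0.40. PPP1R9A and ATP10A differed by -0.28 each (limma adjusted p = 0.534 and 0.640), and without adult arrays 1 and 2 together by -0.02 and -0.59.

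**Figure D4:**
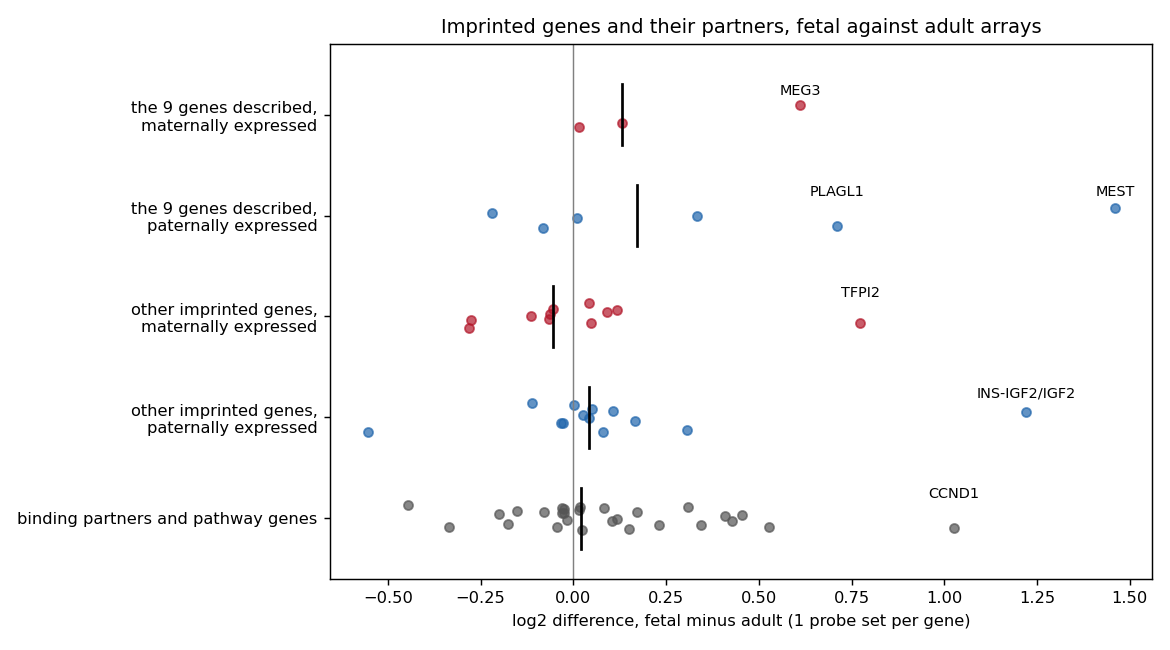
Log2 difference, fetal minus adult (horizontal axis), for the genes described, other imprinted genes and binding partners (rows), 1 point per probe set and 1 probe set per gene, with bars at the medians. Most points lie close to 0, and MEST (1.46), the INS-IGF2 and IGF2 probe set (1.22), CCND1 (1.02), TFPI2 (0.77), PLAGL1 (0.71) and MEG3 (0.61) stand to the right.

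Of 30 binding partners and pathway genes 28 were measured, among them insulin and IGF receptors for GRB10, NOTCH receptors for DLK1 and cyclins for CDKN1C. They had 56 probe sets, and each gene is again read by its brightest. Of the 28 genes 16 were higher and 12 lower in fetal than in adult arrays, with a median of 0.02. In limma 0 were called, while 3 had an unadjusted p under 0.05. The shares over all probe sets were 47.5% higher, 0.131% called and 8.96% with an unadjusted p under 0.05. CCND1, the cyclin D1 gene, differed by 1.02 (SE 0.28, limma adjusted p = 0.217). It differed by 1.35 without adult array 3 (limma adjusted p = 0.0301) and by 0.38 without adult arrays 1 and 2 together. MAGED1, which encodes a MAGE family protein related to necdin, differed by 0.45 (SE 0.13, limma adjusted p = 0.256), and by 0.58 without fetal array 4 (limma adjusted p = 0.0386). The NOTCH3 receptor gene differed by -0.34 (SE 0.11, limma adjusted p = 0.358).

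CCND1 was also the gene whose pattern was most like that of PLAGL1. It read 9.63 and 10.56 at gestation day 120, 10.18 and 10.84 in newborn, 9.65, 9.80, 10.16 and 10.08 in infant, and 8.80, 9.12 and 9.92 in adult arrays. Like PLAGL1 it was highest in fetal array 4 and lowest in adult array 1, with Pearson's r of 0.974 on log2 values over 11 arrays, the largest among 19062 probe sets compared. The gene most like MEST was NME1, a nucleoside diphosphate kinase (r = 0.979), and 30 probe sets had an r above 0.9 with MEST. For MEG3 the most alike was PTPRS, a receptor tyrosine phosphatase (r = 0.922), and for DLK1 it was SF3A1, a splicing factor subunit (r = 0.947). The largest r of the others was 0.929 for PEG10 with LRRC42, 0.912 for NDN with IRAK3, 0.898 for GRB10 with ZDHHC7, 0.896 for CDKN1C with LIAS and 0.883 for PEG3 with H4C8. These are the highest of many values over 11 arrays that share age groups and are given as a description.

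Genes of the same imprinted domain were compared in 4 pairs over the 11 arrays, on the probe sets that represent them. DLK1 and MEG3, which are expressed from opposite alleles of 1 domain, had r = -0.09 (permutation p = 0.797, adjusted over the 4 pairs 0.797) and rho = 0.21 (permutation p = 0.542, adjusted 0.799), and without the fetal 3 and infant 1 arrays r was 0.44. PEG10 and SGCE, neighbours with 0 protein-coding genes between them in the T2T-MMU8v2.0 annotation, had r = 0.36 (permutation p = 0.272, adjusted 0.543) and rho = 0.09 (permutation p = 0.799, adjusted 0.799), and r was -0.23 without fetal array 3 and infant array 2. NDN and the SNURF and SNRPN probe set had r = -0.22 (permutation p = 0.524, adjusted 0.698) and rho = -0.14 (permutation p = 0.690, adjusted 0.799), with r = -0.23 without adult array 2 and infant array 3.

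CDKN1C and PHLDA2, both maternally expressed, went opposite ways, with r = -0.75 (permutation p = 0.00737, adjusted 0.0295) and rho = -0.63 (permutation p = 0.0438, adjusted 0.175). PHLDA2, which limits placental growth, read 9.12 in adult array 3 and 8.57 in fetal array 4, the arrays with the lowest CDKN1C, and between 7.43 and 8.19 in the others. Without these arrays r was -0.28, so the relation rested on them. On deviations from the title group means r was -0.75 for this pair, 0.212 for DLK1 and MEG3, 0.556 for PEG10 and SGCE, and 0.0368 for NDN and SNRPN.

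Over all probe sets the first principal component held 23.1% of the variance and set infant arrays 1 and 2 and adult arrays 1 and 2 (scores of -20.5 to -16.1) apart from the other 7 arrays (6.70 to 19.5). Markers of several cell types were also read. Of 8 mesenchymal stromal markers 7 lay above the median of probe set means and NT5E below it, and the summed linear intensities of the list overlapped between all age groups. Above the median also lay 6 of 9 leukocyte and macrophage, 4 of 6 erythroid and 3 of 5 skeletal muscle markers. As levels are not compared between genes, such counts cannot tell which cell types were present. Of 8 plasma cell markers 5 lay above it and JCHAIN, XBP1 and TNFRSF17 below. Their sum was 9236 and 12066 in adult arrays 1 and 2 and 2075 in adult array 3, against 1725 to 1902 in fetal and 1555 to 1936 in infant arrays. It was carried by the immunoglobulin light chain genes IGLC1, at 12.82 and 13.23 on the log2 scale in adult arrays 1 and 2, and IGKC, at 9.36 and 9.90. JCHAIN read 7.05 and 7.49 there, against 6.60 to 6.93 in fetal and infant arrays, and MZB1, IGHM, SDC1 and XBP1 lay within the range of the fetal and infant arrays. The sum of 6 endothelial markers, of which CDH5, VWF, KDR and ERG lay below the median, was 1056 to 1111 in fetal and 1194 to 1247 in adult arrays. Singly, 5 of the 6 were lower and 1 higher in fetal arrays, and 0 were apart, against 8.08% of all probe sets. The brightest were TEK (8.42 to 8.49 in fetal, 8.43 to 8.96 in adult arrays) and PECAM1 (7.57 to 7.89 and 7.89 to 8.40). The sum of 5 adipocyte markers, with ADIPOQ, FABP4 and LPL below the median, was 774 to 797 in fetal and 860 to 895 in infant arrays. The plasma cell and endothelial sums were thus higher in adult than in fetal arrays, while MEG3, MEST and PLAGL1 were lower, and the part of either list in those differences was not tested. Among the adult arrays the plasma cell sum was lowest in adult array 3. MEST was lowest there too, but MEG3 (7.48, 7.58 and 7.94 in adult arrays 1 to 3) and PLAGL1 (6.94, 7.06 and 7.41) were highest there. The sums of the leukocyte, erythroid, skeletal muscle and osteoblast lists overlapped between fetal and adult arrays.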

How the data were processed

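RNA of 11 cultures was measured on 1 array each. The deposited values are linear intensities per probe set made by the authors with RMA (background correction, normalisation between arrays, summary of probes), per the submitters' processing notes. They were taken to log2, with array medians between 164.9 and 169.6. Of 22215 probe sets 19065 had 1 symbol, 1043 several and 2107 none. RMA values repeated exactly between arrays in 58.5% of probe sets, and in 10 of the 22 described. The number of arrays limits precision, and no detection call was used.

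Limma 3.58.1 (R 4.3.3) fitted 1 mean per title group, and 1 mean per stage for newborn against gestation day 120 and for the test among 4 stages, over all 11 arrays with no filter, and was tested on simulated data. Permutation tests were two-sided with 100000 resamples. The genes and lists were chosen with earlier results of these data known. Values are given for every array for the probe set of highest mean, and for others whose groups did not overlap. From other lists the 3 genes of smallest p were named, and the most alike gene by Pearson's r.

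Same-numbered infant and adult arrays had correlated deviations (0.145, 0.131 and 0.204), each over 0.1, so a fit with the title numbers as a block is given. The labels name no pairs, and infant array 2 correlated best with adult array 1. Infant arrays 1 and 2 and adult arrays 1 and 2 also shared a side of the first principal component. The correlations therefore cannot show that arrays pair by number. Deviations of same-numbered fetal and adult arrays did not reach 0.1 (0.068, 0.043 and -0.096). Alternatives left out each array, dim probe sets, or adult arrays 1 and 2, or used quantile normalisation, array weights, a trended robust prior, a replicate block or 1 fetal stage.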

Additional observations from a re-analysis of the deposited data

Results flagged for a closer look

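In 6 of 44 groups of 4 arrays (22 probe sets, fetal and infant) 1 array lay far from the other 3 by Dixon's test. For values that do not repeat, chance gives this in about 1 of 20 groups. Values repeated exactly in 10 of the 22 probe sets, among them those of GRB10 and PEG3 named here, so 6 of 44 cannot be set against that rate. For CDKN1C 213348_at fetal array 1 read 7.90 and the other fetal arrays 7.56 to 7.60. For GRB10 209409_at fetal array 4 read 8.80 against 8.17 to 8.26, and infant array 1 read 7.77 against 8.12 to 8.15. For PEG3 209242_at fetal array 2 read 6.83 against 7.02 to 7.03, and infant array 4 read 6.81 against 7.00 to 7.02. For PEG3 209243_s_at fetal array 4 read 6.59 and the other 3 repeated 6.71 exactly.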

How the results depend on the processing

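Of 910 refits of 53 single values 868 kept their direction and side of the threshold, 37 reversed and 5 became called. Between fetal and adult arrays 29 probe sets passed. This became 120 with array weights, 221 with a replicate block, 44 without adult arrays 1 and 2 together (which leaves 1 adult array, assumed to vary like the other groups), 2 with newborn arrays alone as fetal, and 4 to 153 when each array was left out. Of the 22 probe sets 1 then passed with array weights (MEG3, 0.69, limma adjusted p = 0.0333, 0.540% of all), 1 with the replicate block (MEST, 1.73, limma adjusted p = 0.0145, 0.995% of all), and 0 to 1 when each array was left out (MEG3, without adult array 3). The title numbers of fetal and adult arrays, and of fetal and infant arrays, did not meet the criterion for pairing.

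Between infant and adult arrays 4 became 10 with array weights, 8 with a trended robust prior, 9 with the replicate block, 44 without adult arrays 1 and 2 together and 0 to 55 when each array was left out. Between fetal and infant arrays 0 became 1 without dim probe sets, 1 with array weights, 2 with the replicate block and 0 to 21 when each array was left out. Between newborn and gestation day 120 arrays 0 became 0 to 2. Among the 4 stages 6 became 43 with array weights, 15 with the trended robust prior, 14 without adult arrays 1 and 2 together and 1 to 69 when each array was left out, and 1 of the 22 then passed with array weights (MEG3, limma adjusted p = 0.0472) and 0 to 1 when each array was left out (MEG3, without adult array 3, limma adjusted p = 0.0370).

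Some differences reversed, none of them called. Between fetal and adult arrays CDKN1C became -0.00165 with quantile normalisation, -0.0771 with array weights and -0.0973 with newborn arrays alone, NDN 0.264 and DLK1 -0.0280 without adult arrays 1 and 2 together, and DLK1 -0.138 with newborn arrays alone. Between infant and adult arrays MEG3 became -0.246 and GRB10 0.00877 without adult arrays 1 and 2 together, and NDN -0.0283 with array weights. Between fetal and infant arrays, with gestation day 120 arrays alone, CDKN1C became 0.0297, PEG3 -0.0283 and DLK1 0.000695. The cause was not tested.

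Leaving out each array in turn gave ranges that cross 0. Between fetal and adult arrays these were -0.151 to 0.154 for CDKN1C, -0.0748 to 0.12 for DLK1. Between infant and adult arrays these were -0.0639 to 0.17 for MEG3, -0.0669 to 0.207 for CDKN1C, -0.106 to 0.00802 for GRB10, -0.229 to 0.179 for NDN. Between fetal and infant arrays these were -0.216 to 0.0537 for CDKN1C, -0.031 to 0.0694 for PEG3, -0.0117 to 0.311 for PEG10. Between newborn and gestation day 120 arrays these were -0.527 to 0.0721 for CDKN1C, -0.0323 to 0.119 for GRB10, -0.114 to 0.488 for PLAGL1, -0.00555 to 0.197 for PEG3, -0.504 to 0.259 for PEG10, -0.0473 to 0.291 for NDN.

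Over all probe sets of a class, the maternal medians became 0.0312 (fetal against adult), -0.0839 (fetal against infant) and 0.00186 (newborn against gestation day 120, and -0.0704 with gene means), and the paternal ones 0.0115 (fetal against adult) and 0.0562 (infant against adult). With gene means r became 0.103 for DLK1 and MEG3 and 0.211 for NDN and SNRPN. Levels near the dim end (DLK1, PEG3) limit what could be seen there.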

Other observations

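Adult array 3 and adult arrays 1 and 2 read apart for several imprinted genes, chosen after their values were seen and with no test. These arrays also differ in XIST and RPS4Y1, so that sex and other differences between the cultures cannot be told apart. MEST read 7.37 against 9.34 and 8.80, NDN 7.43 against 8.07 and 8.25, and CDKN1C 7.72 against 8.26 and 8.17. PHLDA2 read 9.12 against 7.44 and 7.43, TFPI2 8.98 against 7.59 and 6.87, and DIRAS3 6.80 against 7.62 and 7.85.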
